A study of Mus musculus with 2 samples.

Results

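The regions described here are the Runx3 peaks around 5 genes of the AP-1 family, Junb, Fosl2, Fos, Batf and Jun, in mouse natural killer (NK) cells activated with IL-15. A peak was taken as a member when its midpoint lay in a window set around one of the genes in mm9 coordinates: chr8:87470000-87530000 for Junb, chr5:32390000-32500000 for Fosl2, chr12:86780000-86860000 for Fos, chr12:86990000-87070000 for Batf and chr4:94650000-94790000 for Jun. By this rule 30 of the 19647 peaks in the deposited list (0.153%) were members, 11 at Junb, 6 at Fosl2, 8 at Fos, 2 at Batf and 3 at Jun. The 5 genes were chosen by their peak counts in this same list, and the windows were set with those counts known, so the counts are a description and no test was made on them.

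The study sequenced chromatin immunoprecipitated from splenic NK cells of wild-type ICR mice, 1 library with a home-made polyclonal antibody to Runx3 and 1 control library with non-immune rabbit serum (NIS). All mice had received 2 injections of complexes of IL-15 with its receptor alpha chain (IL-15/Ra), given 2 days apart, so the series holds no unstimulated group. Per the labels' protocols, 40000000 NK cells were enriched by depleting other spleen cells and then sorted as NKp46+, and the sources used here do not say how many mice were pooled. The 1 deposited list gives the chromosome, start and end of each peak and nothing else, so it holds no read depth, no peak height and no RNA against which the NK identity of the cells could be checked. Neither library had a replicate, and the control library enters no value given below.

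AP-1 is a dimeric transcription factor built from basic leucine zipper proteins. Jun proteins (Jun, Junb) pair with one another or with Fos proteins (Fos, Fosl2), and Batf pairs with Jun proteins and, in lymphocytes, cooperates with IRF factors on composite DNA elements. Fos, Jun and Junb are textbook immediate early genes, transcribed within minutes of receptor signalling, and AP-1 acts in the induction of cytokine genes. Runx3 is a Runt-domain factor that binds DNA with its partner Cbfb and acts in NK cells and cytotoxic T cells.

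To describe the promoters of these genes, the 300 bases from 250 before to 50 after the annotated start were read from the RefSeq promoter table (build GRCm38.p6), in which 5 of 5 members were matched. The RUNX motif was searched as TGTGGT or TGCGGT on both strands. It occurred in 2 of the 5 promoters, Batf with 2 matches and Fosl2 with 1, against 22.4% of all 32851 promoters in the table with at least 1 match and 2.86% with at least 2. The 250 bases before the start of Batf (GRCm38.p6, plus strand, chr12:85686470-85686719) and of Junb (minus strand, chr8:84978749-84978998) are shown because they hold the most motifs and the most peaks nearby, respectively, together with 30 bases around the Fosl2 match, which begins 33 bases into the transcribed part (plus strand, chr5:32136492-32136521). Capitals mark the RUNX motifs.
Batf: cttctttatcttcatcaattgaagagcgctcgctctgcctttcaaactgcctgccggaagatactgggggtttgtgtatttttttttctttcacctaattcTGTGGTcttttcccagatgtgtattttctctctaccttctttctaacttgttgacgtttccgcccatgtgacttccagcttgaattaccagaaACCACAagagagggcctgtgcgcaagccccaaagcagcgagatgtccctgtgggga
Junb: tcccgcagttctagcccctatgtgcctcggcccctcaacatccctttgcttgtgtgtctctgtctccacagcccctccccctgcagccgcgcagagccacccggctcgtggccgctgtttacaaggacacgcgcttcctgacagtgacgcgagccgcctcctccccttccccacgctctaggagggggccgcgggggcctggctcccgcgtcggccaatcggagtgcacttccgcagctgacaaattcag
Fosl2: gcagaaacgaagTGCGGTgcgcggcgatcg

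In Batf the first match, TGTGGT, begins 149 bases before the start, and the second, ACCACA, which is TGTGGT on the other strand, begins 56 bases before it. The promoters of Junb and Fos, the 2 loci with the most peaks, and that of Jun held no match in this window. Exact matches to the AP-1 motif TGANTCA and the CRE motif TGACGTCA, each searched on both strands, were found in 0 of the 5 promoters. The shares of all promoters in the table were 7.81% and 1.79%, so 0 of 5 is not unusual. Near matches were not counted, such as TGACATCA before the start of Jun, so variant sites may be present. The base composition of the windows differed, with G or C at 46.4% of the 250 bases before the start in Batf, 66.4% in Junb, 64.4% in Fosl2, 61.2% in Jun and 58.4% in Fos, against a median of 52.4% over the table. These promoter positions are in another build than the peaks, so whether a peak covers a given promoter or motif was not determined, and a match describes the letters only.

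**Figure D1:**
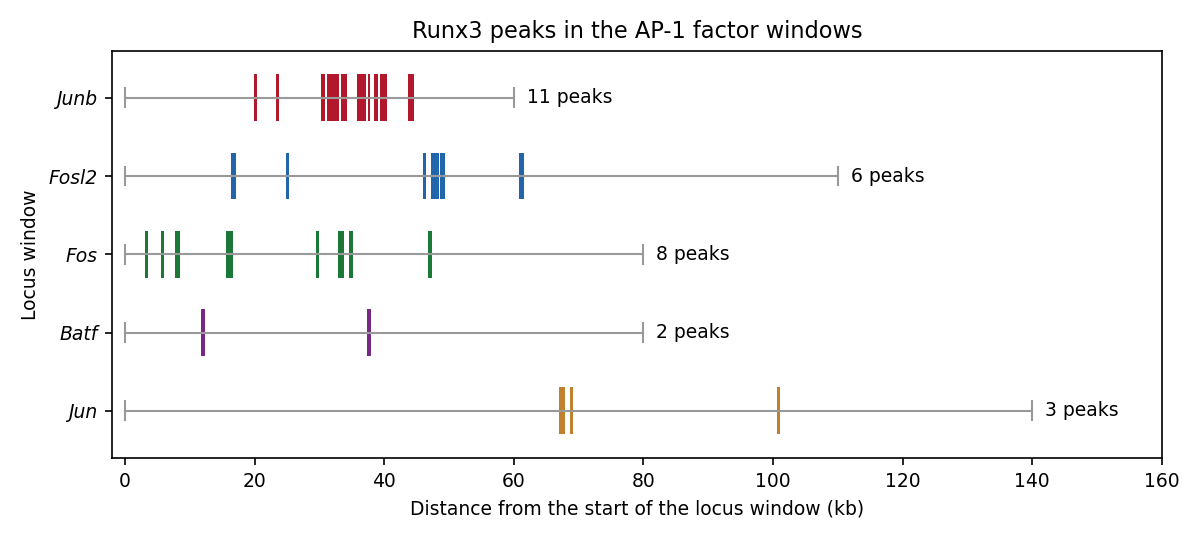
Runx3 peaks in the 5 windows, drawn to scale as coloured blocks against the distance from the start of each window in kb; grey lines show the length of the windows, 60 to 140 kb. The 11 Junb peaks form 1 dense group, the Fos and Fosl2 peaks form several smaller groups, and the Batf and Jun windows hold 2 and 3 peaks.

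Junb carried the largest group of Runx3 peaks of the 5 loci and had the most peaks per 100 kb of window. Its 11 peaks lay between 87489859 and 87514629 on chromosome 8, a stretch of 24.8 kb, and each was at most 6.97 kb from the next, midpoint to midpoint. Distances by which peaks are said to be apart are measured in this way below too. Peaks covered 8600 bp, or 14.3% of the 60 kb window, and 34.7% of the occupied stretch. The number of peaks per 100 kb was 18.3, with an exact 95% Poisson interval of 9.15 to 32.8, against 0.805 per 100 kb over chromosome 8. All such intervals here cover counting error only and treat peaks as independent.

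The group at Junb had a core and outlying peaks. The first peak (chr8:87489859-87490333, 475 bp) and the second (chr8:87493260-87493834, 575 bp) stood 3.45 kb apart, and 6356 bp separated the second from the third. From the third to the tenth peak, 8 peaks fell within 10.2 kb (chr8:87500191-87510417) and covered 64.9% of it. The widest of them, at chr8:87501257-87503019, measured 1763 bp, which placed it at percentile 99.5 of widths in the whole list. The next widest, at chr8:87505791-87507179, measured 1389 bp (percentile 98.0), and another at chr8:87509415-87510417 measured 1003 bp. The core also held the narrowest member of all 5 loci, 346 bp at chr8:87507476-87507821 (percentile 1.47), which stood 296 bp from the end of the 1389 bp peak. The last peak of the group, chr8:87513714-87514629, measured 916 bp and stood 3296 bp beyond the core.

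Several of the Junb peaks were nearly continuous. The peaks at chr8:87503365-87503872 (508 bp) and chr8:87503877-87504283 (407 bp) were separated by 4 bp, and 6 of the 10 gaps in the group were under 1000 bp. Over the whole list, 9.48% of the 19627 gaps between neighbours were under 1000 bp. Joining gaps of up to 100 bp left 10 regions at Junb, and joining gaps of up to 1000 bp left 5. Whether adjoining peaks are separate sites or 1 region listed in parts cannot be told apart from positions.

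Equal windows of 60 kb, laid end to end from the Junb window over the rest of chromosome 8, gave the level to read this count against. Of 2132 such windows, 22.6% held at least 1 peak and 1 window (0.0469%) held as many as 11, with a mean of 0.477 ± 1.17 (SD over windows) and a maximum of 11. The Junb window thus held 23.0 times the mean of the chromosome. Its covered share of 14.3% lay above that of every equal window on chromosome 8, the highest of which had 12.3%. With gaps of up to 1000 bp closed, the count was 11.7 times the mean, and 1.22% of equal windows held as many regions. When neighbouring peaks at most 10 kb apart were chained over the whole list, 11 of 13450 chains, single peaks included, had 11 or more peaks, and the Junb group was the only one of them on chromosome 8.

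Fos, which encodes the founding partner of Jun in AP-1, had 8 Runx3 peaks spread over 44.3 kb of chromosome 12 (86783085 to 86827386). The density was 10 per 100 kb (exact 95% Poisson interval 4.32 to 19.7), and peaks covered 6.71% of the 80 kb window. They fell into 2 groups and a single peak. The first group held 4 peaks in 13.6 kb. Its first 3, chr12:86783085-86783560 (476 bp), chr12:86785569-86786077 (509 bp) and chr12:86787793-86788511 (719 bp), stood 2.50 and 2.33 kb apart, and the last, chr12:86795610-86796688, was the widest at Fos with 1079 bp. The second group began 12830 bp further on and held 3 peaks in 5.71 kb, of 456, 795 and 722 bp, the last of them at chr12:86814503-86815224. The single peak, chr12:86826774-86827386, measured 613 bp and stood 11549 bp from the second group.

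Of the 1454 equal windows of 80 kb on chromosome 12, 25.6% held at least 1 peak and 6 (0.413%) held 8 or more, against a mean of 0.548 ± 1.27 (SD over windows). The Fos window therefore held 14.6 times the mean, and its covered share was matched or passed in 5 of the equal windows (0.344%). Unlike the Junb group, the Fos peaks were not close to continuous, as the smallest gap was 767 bp and joining gaps of up to 1000 bp left 7 regions, 14.1 times the mean.

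Fosl2 encodes Fra-2, a Fos family protein. Its window held 6 peaks in 45.2 kb of chromosome 5 (32406368 to 32451558), which was 5.45 per 100 kb (exact 95% Poisson interval 2.00 to 11.9), and 4.10% of the 110 kb window was covered. A close group of 3 peaks, of 467, 1256 and 735 bp, occupied 3.37 kb (chr5:32435958-32439323) and covered 73.0% of it. The widest of the 3, chr5:32437254-32438509, was at percentile 96.4 of the list and was separated from the next, chr5:32438589-32439323, by 79 bp. A pair of peaks stood at lower coordinates, chr5:32406368-32407152 (785 bp) and chr5:32414793-32415327 (535 bp), with 20630 bp between the pair and the group of 3. The last peak, chr5:32450829-32451558 (730 bp), lay 11505 bp beyond that group.

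The Fosl2 peaks stood apart from others on the chromosome. No peak was listed in the 184.9 kb before the first of them or in the 309.5 kb after the last. Gaps at least that long made up 11.6% and 7.57% of all gaps between neighbours in the list. Among the 1355 equal windows of 110 kb on chromosome 5, 35.1% held at least 1 peak and 42 (3.10%) held 6 or more. The mean was 0.923 ± 1.76 (SD over windows), so that the Fosl2 window held 6.50 times the mean. Of the windows with at least 1 peak, 8.84% held 6 or more. By covered bases, 21 equal windows (1.55%) reached the Fosl2 window. With gaps of up to 1000 bp joined, Fosl2 had 4 regions, and 7.31% of equal windows held 4 or more.

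Jun had 3 peaks. A pair stood 1.46 kb apart near the middle of the 140 kb window, chr4:94716936-94717878 with 943 bp, the widest at Jun, and chr4:94718634-94719096 with 463 bp. The third, chr4:94750570-94751058 with 489 bp, lay 31473 bp further on. The density of 2.14 per 100 kb (exact 95% Poisson interval 0.442 to 6.26) was 2.67 times the mean of the equal windows on chromosome 4. Of those 1085 windows, 36.4% held at least 1 peak and 174 (16.0%) held 3 or more. Counts of 3 or more were thus common on chromosome 4. Windows with at least 1 peak held 3.08 on average, slightly more than the 3 at Jun. Their median was 2, and 44.1% of them held 3 or more.

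Batf, whose promoter holds the pair of RUNX motifs printed above, had the fewest peaks. The 2 peaks, chr12:87001760-87002344 (585 bp) and chr12:87027329-87027938 (610 bp), were 25.6 kb apart, and their widths lay close to the median of the list, 604 bp. The density was 2.50 per 100 kb (exact 95% Poisson interval 0.303 to 9.03), and 194 of 1453 equal windows on chromosome 12 (13.4%) held 2 or more peaks, where 25.7% held at least 1. The count was 3.62 times the mean of all equal windows and 0.930 times the mean of those that held any peak. By covered bases, 1.49% of the Batf window lay in peaks, and 11.8% of equal windows reached that share.

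**Figure D2:**
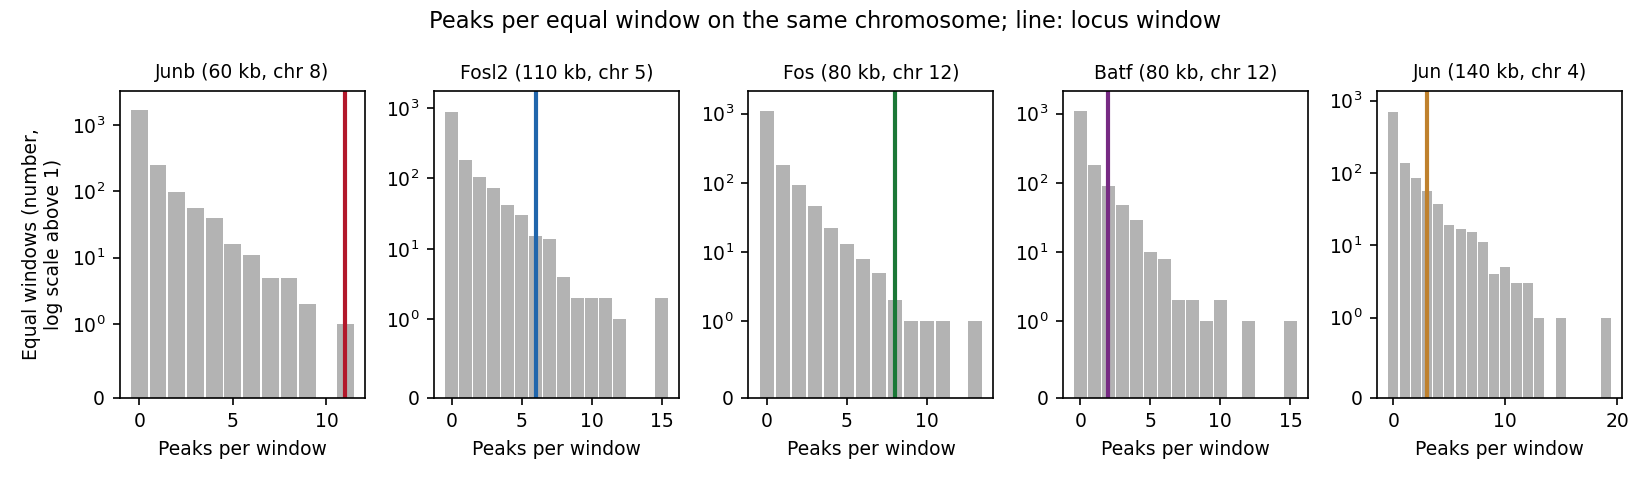
Number of equal windows (vertical axis, log scale above 1) by the number of Runx3 peaks they hold (horizontal axis), for windows of the same length on the same chromosome; the coloured line is the locus window. Lines for Junb (11 peaks), Fos (8) and Fosl2 (6) lie in the tail of the bars, and those for Batf (2) and Jun (3) do not.

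By density the order was Junb, Fos, Fosl2, Batf and Jun. The order describes the counts by which the loci were chosen and was not tested. The Poisson intervals of loci next to each other in it overlapped, which does not show that their densities are alike. With gaps of up to 1000 bp joined the regions numbered 5 at Junb, 7 at Fos, 4 at Fosl2, 2 at Batf and 2 at Jun. Fos then passed Junb, at 14.1 against 11.7 times the mean of equal windows. As many regions or more were held by 0.413% of equal windows for Fos and 1.22% for Junb. Among peaks at or above the median width, Junb and Fos each held 5. As many or more were then held by 0.563% of equal windows for Junb and 0.275% for Fos. The first place of Junb thus depended on how peaks were split and selected. The windows are of different length. In a common 60 kb about the centre of each, a comparison added after the values were seen, the counts were 11 at Junb, 5 at Fosl2, 5 at Fos, 2 at Batf and 2 at Jun.

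The surroundings of the 5 loci also differed. The 10 equal windows on each side of Junb reached 600 kb each way. Their 20 counts ranged from 0 to 8 with a median of 1. None reached the 11 of Junb, where 0.0469% of all equal windows on chromosome 8 did. At Fos none of the 20 reached 8, where 0.413% on chromosome 12 did, and the highest held 5. With shares this low, and loci chosen by these counts, 0 of 20 at Junb and Fos adds no separate evidence. At Fosl2, 1 of the 20 reached the locus count, with 7 peaks, against 3.10% on chromosome 5. The windows directly beside Fosl2 held 0 and 0. At Jun 15 of the 20 windows were empty. There 1 reached the locus count with 3 peaks, against 16.0% on chromosome 4, and that one was directly beside Jun. At Batf, 9 of the 20 held 2 or more peaks, up to 8, against 13.4% on chromosome 12. The neighbouring window on the left held 4. The 8 are the Fos peaks themselves, and the 4 are the peaks between the Fos and Batf windows. The same peaks enter the surroundings of Fos and Batf, which lie on 1 stretch of chromosome 12.

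**Figure D3:**
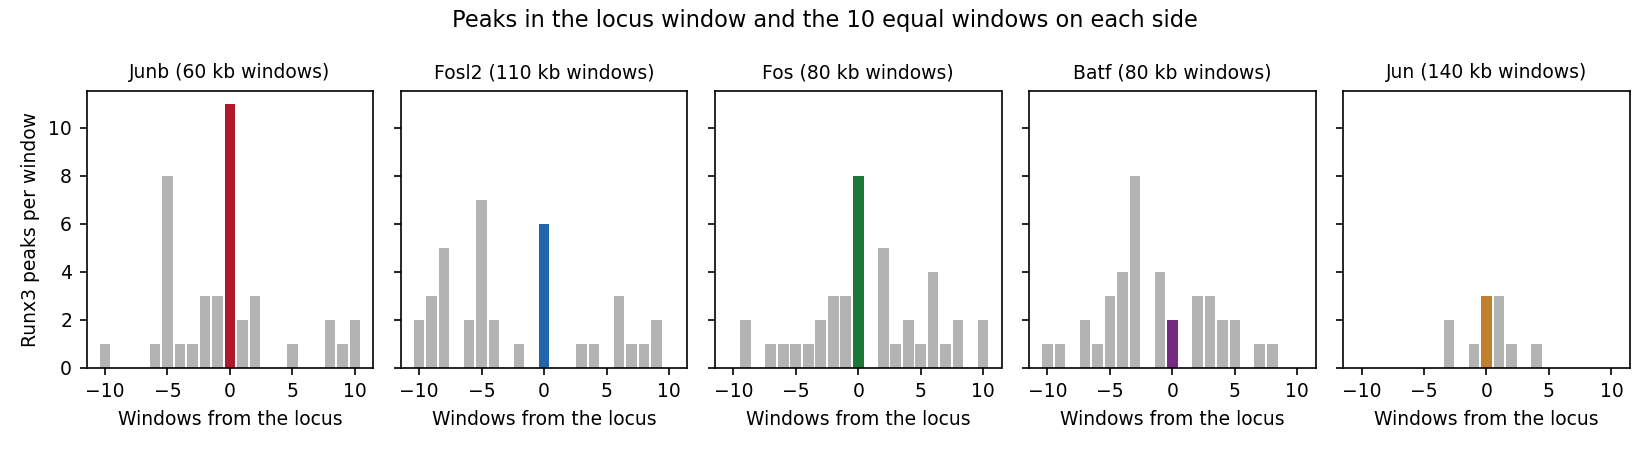
Runx3 peaks (vertical axis) in the locus window (coloured, 0 on the horizontal axis) and in the 10 windows of the same length on each side (grey). Junb and Fos exceed their 20 surrounding windows, which was likely beforehand, as the loci were chosen by their counts. Around Batf, 9 of 20 windows hold as many peaks as Batf or more. The highest of those around Batf holds the Fos peaks.

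Fos and Batf lie close together. In the gene order of GRCm38.p6 only 1 protein-coding gene, Jdp2, stands between them; it encodes a Jun dimerization protein that acts as a repressor of AP-1. In mm9 the 130 kb between the Fos and Batf windows (chr12:86860000-86990000) held 4 Runx3 peaks, in 2 pairs. The first pair was chr12:86939465-86940827, which measured 1363 bp and was at percentile 97.7 of the list, and chr12:86943737-86944342 with 606 bp. The second was chr12:86965575-86966080 with 506 bp and chr12:86970301-86971175 with 875 bp. This interval held 3.08 peaks per 100 kb (exact 95% Poisson interval 0.838 to 7.88), and 7.94% of 894 equal windows on chromosome 12 held 4 or more. From the start of the Fos window to the end of the Batf window, 290 kb, there were 14 peaks, with 112.1 kb free of peaks between the last Fos peak and the first of the interval.

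Other genes share the windows' neighbourhoods, and peaks were not assigned to genes. In the gene order of GRCm38.p6, the nearest protein-coding neighbours are Prdx2 and Hook2 for Junb, Babam2 and Plb1 for Fosl2, Tmed10 and Jdp2 for Fos, Jdp2 and Flvcr2 for Batf, and Mysm1 and Fggy for Jun. The peaks counted at Junb may therefore lie at any gene within its 60 kb.

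Widths at the 5 loci ran from 346 to 1763 bp with a median of 611.5 bp, close to the 604 bp of the whole list. Of the 30 members 16 (53.3%) were at or above the median of the list, where 50.1% of all peaks were. Peaks over 1000 bp numbered 5 of 30 (16.7%), against 10.4% of the list, and 3 of the 5 were at Junb, 1 at Fosl2 and 1 at Fos. Median widths were 575 bp at Junb, 732.5 bp at Fosl2, 666 bp at Fos, 597.5 bp at Batf and 489 bp at Jun. The Junb group had a median below that of the list and held both the narrowest and the 2 widest members. It also had the most peaks, and extremes widen with the number of peaks, so the spread of widths was not compared. Peaks of 1 locus in 1 library are not replicates, and these widths were not tested.

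**Figure D4:**
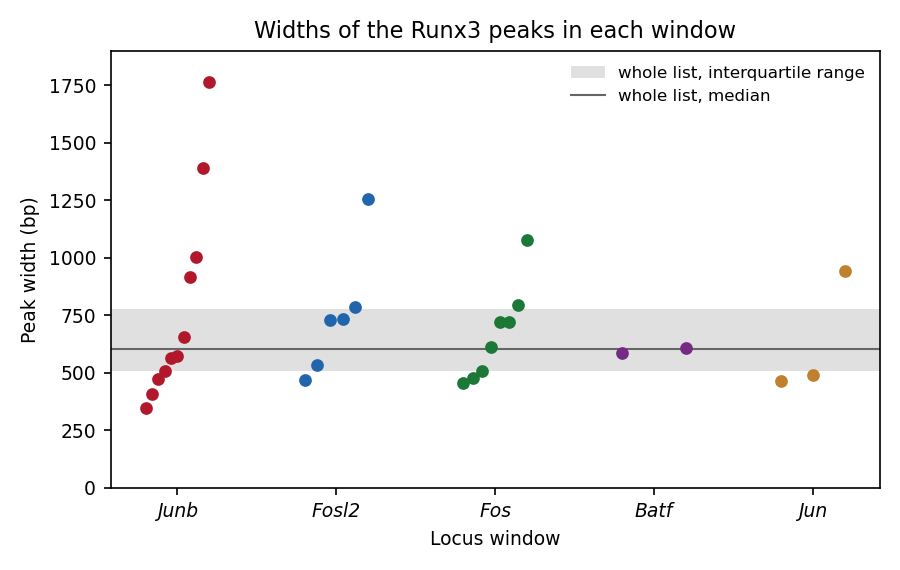
Width in bp (vertical axis) of each Runx3 peak in the 5 windows (points, ordered by width within a locus), with the median of the whole list (line, 604 bp) and its interquartile range (grey band, 506 to 778 bp). Junb has both the narrowest (346 bp) and the widest (1763 bp) point.

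Spacing was close at 3 of the 5 loci. Of the 25 neighbouring pairs inside the windows, 19 (76.0%) were at most 10 kb apart, against 31.6% of all neighbouring pairs in the list. These were 10 of 10 pairs at Junb, 5 of 7 at Fos, 3 of 5 at Fosl2, 1 of 2 at Jun and 0 of 1 at Batf. The median distance was 1.55 kb at Junb, 3.59 kb at Fos and 8.30 kb at Fosl2, against 24.4 kb over the list. Windows with many peaks must hold close pairs, so spacing is no separate evidence of grouping.

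The edges of the windows did not cut through a group, but they were set with the counts known, so this is no separate result. At Junb the nearest peaks outside, chr8:87452429-87452872 (444 bp) and chr8:87548985-87549453 (469 bp), were 17.3 and 19.2 kb from the edges, and the outermost peaks inside were 20.1 and 15.8 kb from them. At Fos the first peak inside was 3.32 kb from the left edge and the nearest outside, chr12:86715741-86716208 (468 bp), was 64.0 kb from it. At Batf the nearest peak outside was the last of the interval towards Fos, 19.3 kb from the edge, and on the other side it was chr12:87159347-87159775 (429 bp), 89.6 kb away. At Fosl2 the nearest outside were chr5:32220748-32221464 (717 bp) and chr5:32761043-32761871 (829 bp). The peak nearest to an edge from outside was at Jun, where chr4:94645411-94646131 (721 bp) lay 4.23 kb outside the left edge, and on the right chr4:94833121-94833642 (522 bp) lay 43.4 kb outside.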

How the data were processed

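Per the labels' protocols, chromatin fixed in 1% formaldehyde was sheared to fragments near 200 bp, and ELAND aligned the 50 bp reads. The submitters' processing notes name CASAVA 1.8.2 and mm9. The sources used here do not give the peak caller, its threshold, the use of the control library or the completeness of the list. As deposited by the authors, the list holds peak starts and ends, with starts counted from 0; they are printed counted from 1. Depth is unknown.

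The members and lists were chosen with earlier results of these data known. Peaks were assigned by midpoint. Equal windows were tiled outward from each locus window and kept where they lay whole between the first and last peak of the chromosome. Counts carry exact 95% Poisson intervals (Python 3.11.15, scipy 1.17.1), and window counting was tested on simulated data. Peaks named are the widest of each window, those of its longest chain, those at the edges, and all peaks of windows with 5 or fewer; others were chosen after their values were seen. Of the other AP-1 genes listed (Jund, Fosb, Fosl1, Jdp2, Batf2, Batf3, Atf3), peaks were counted beside Jdp2 alone, since no mm9 window was given for the rest.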

Additional observations from a re-analysis of the deposited data

How the results depend on the processing

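The ratio of each locus to the mean of its equal windows, by peaks and by covered bases, was recomputed under 8 settings, 80 values in all. Of these, 74 stayed within the counting interval of the reported ratio. For covered bases this was the interval of the peak count, rescaled, which does not measure error in coverage. At Batf (0.439 to 13.1 for peaks) and Jun (0.551 to 7.81) it was so wide that few changes could leave it. Counting by overlap cannot change covered bases, and the common 60 kb is the Junb window itself. The other 6, at Junb, Fos and Fosl2, came from keeping only equal windows with at least 1 peak, which raises the mean by construction. The ratios of peaks and of covered bases were then 5.21 and 5.88 at Junb, 3.73 and 3.83 at Fos, and 2.28 and 2.51 at Fosl2. At Batf (0.930 and 0.847) and Jun (0.973 and 0.912) they stayed within the wide intervals but fell below 1. The longest chain at Fos grew from 4 to 8 peaks when chained at 20 kb; 5 and 20 kb changed no other chain by over 1.5 times. In the common 60 kb, added after the data were seen, the ratio of peaks rose from 6.50 to 9.94 at Fosl2 and from 2.67 to 4.15 at Jun, and that of covered bases at Jun from 2.50 to 4.33. Among peaks at or above the median width the ratio of peaks at Jun was 1.72. With gaps of up to 1000 bp joined that at Junb was 11.7, below the 14.1 at Fos. No paired analysis was possible because there is a single library per antibody. Without read depth in the list, how many weak sites were missed is unknown.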

Other observations

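Of the 7 other AP-1 family genes listed, 5 had a RefSeq promoter entry (Jund, Fosb, Jdp2, Batf3 and Atf3). A RUNX motif occurred in 1 of the 5 genes, Jdp2. The share of all promoters in the table, 22.4%, counts each annotated start separately, so the units differ. The match, ACCGCA, begins 19 bases into the transcribed part of 1 of the 3 annotated starts of Jdp2 (GRCm38.p6, plus strand). The other genes had 1 entry each.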
